A study of Mus musculus with 9 samples.

Results

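Mitochondrial ribosomal proteins were followed at the RNA level in CD11b+ cells sorted from glioma-bearing mouse brain hemispheres. The set was chosen by symbol and by measured counts: protein-coding genes named Mrpl or Mrps with a number that had at least 10 raw counts in every library. Of 78 genes with such a symbol, 77 met the count limit, out of 12538 protein-coding genes tested and 53801 genes listed. The gene left out was Mrpl53, with 0 counts in every library, and 88% of its annotated exon bases lie under exons of another gene on the same strand. The members closest to the limit were Mrps18c with a lowest count of 41, Mrps6 with 46 and Mrpl33 with 56. Since the count limit chose the set, the presence of these genes in every library is not a result.

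The mice were male C57BL/6J animals, 10 to 12 weeks old, and all carried a glioma grown from 80000 implanted GL261 tdTomato+luc+ cells in the right striatum. The CTR group (2 libraries) was given saline by gavage, and the OAT-1746 group (2 libraries) was gavaged with OAT-1746, an inhibitor of both arginases, at 50 mg/kg a dose and 2 doses each day from day 1. The anti-PD-1 group (2 libraries) had an antibody against PD-1 injected into the peritoneum at day 8, 10, 12 and 14, with 2.5 mg/kg each time, and the COMB group (3 libraries) was treated with both agents. The study asked whether blocking arginase changes the immune cells of the tumor and their response to the antibody. A label of anti-PD-1 replicate 2 gives PD-2 as its target, and this library was grouped by its title. The methods put the sorting of cells on day 28 and the legend for the sequencing gives day 21.

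Raw counts of read pairs were 17490386 and 17729568 in CTR, 17380045 and 16784406 under OAT-1746, 14356928 and 18796479 under anti-PD-1 and 13048075, 16144518 and 14806017 under COMB. Levels are given as CPM, the read count scaled to a common library total, with the totals adjusted between libraries by the TMM method. The sorted population was mixed. Beside microglia, the authors name border-associated macrophages, monocytes and macrophages from outside the brain, granulocytes, and part of the NK and dendritic cells. Itgam, which encodes CD11b, stood at 302 and 370 CPM in CTR, 445 and 446 under OAT-1746, 294 and 327 under anti-PD-1 and 366, 307 and 328 under COMB. The sorted marker was thus abundant in all 9 libraries, and highest in OAT-1746. In such bulk libraries, fewer cells of a type and less RNA per cell cannot be told apart. OAT-1746 replicate 2 stood apart from the other libraries. Its correlation with each of them across genes lay between 0.911 and 0.956.

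Mitochondria carry ribosomes of their own, which translate the few mRNAs of the mitochondrial genome into core subunits of the respiratory chain. The RNA of these ribosomes is made in the organelle, but all of their proteins are encoded in the nucleus, translated in the cytosol and imported. The large subunit forms peptide bonds and sits at the inner membrane, the small subunit decodes the mRNA, and many proteins in each are found in mitochondria and not in bacteria.

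The 77 genes summed to 2102 and 2087 CPM in CTR, 1567 and 1169 under OAT-1746, 2082 and 1991 under anti-PD-1 and 1819, 2576 and 2246 under COMB. Both OAT-1746 libraries lay below each of the 7 others, and the COMB libraries spread on either side of CTR and anti-PD-1. The mean of OAT-1746 was 1368 CPM ± 281 (SD, n = 2), or 65.3% of the CTR mean of 2094 ± 10.4 (n = 2). The anti-PD-1 mean reached 97.2% and the COMB mean 106% of CTR. The 50 members of the large subunit summed to 65.2% of CTR in OAT-1746 and the 26 members of the small subunit to 65.8%. The small-to-large ratio of these sums stayed between 0.369 and 0.407 over the 9 libraries, so the libraries hardly differed in the balance of the subunits. The last member, Mrps36, carries the name of a ribosomal protein but belongs to the 2-oxoglutarate dehydrogenase complex.

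**Figure D1:**
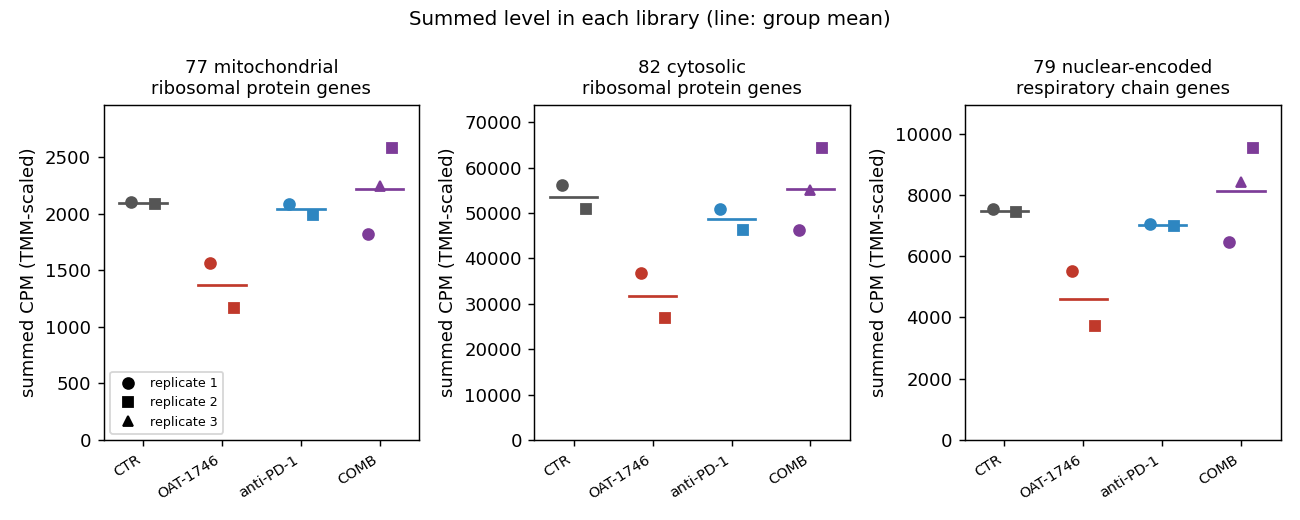
Summed level, in TMM-scaled CPM, of the 77 mitochondrial ribosomal protein genes (left), of 82 cytosolic ribosomal protein genes (middle) and of 79 nuclear-encoded respiratory chain genes (right) in each library, with a line at each group mean. In all 3 panels the OAT-1746 libraries are the lowest, with replicate 2 below replicate 1.

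Levels among members were compared per kilobase of exon, as a mean of the 9 libraries. Exon length here is the merged length of all annotated exons of a gene, over all its transcripts. They ran from 0.914 to 61.5 CPM per kilobase, with a median of 8.82. Mrpl52, a large-subunit protein without a bacterial counterpart, was the highest by this measure at 61.5. Mrps21, the counterpart of bacterial S21, followed at 39.1, and Mrpl54 of the large subunit at 35.7. At the low end were Mrps35 of the small subunit at 2.02, Mrps10, the counterpart of bacterial S10, at 1.69, and Mrpl33, the counterpart of bacterial L33, at 0.914. The merged exons spanned 8631, 8079 and 7326 bases for these low genes and 1109, 739 and 825 for the high ones. The order thus depends on annotated length as well as on counts. Genes of both subunits lie along the whole range in the plot of level per kilobase. The members lie on 17 chromosomes, with 11 on chromosome 11.

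**Figure D2:**
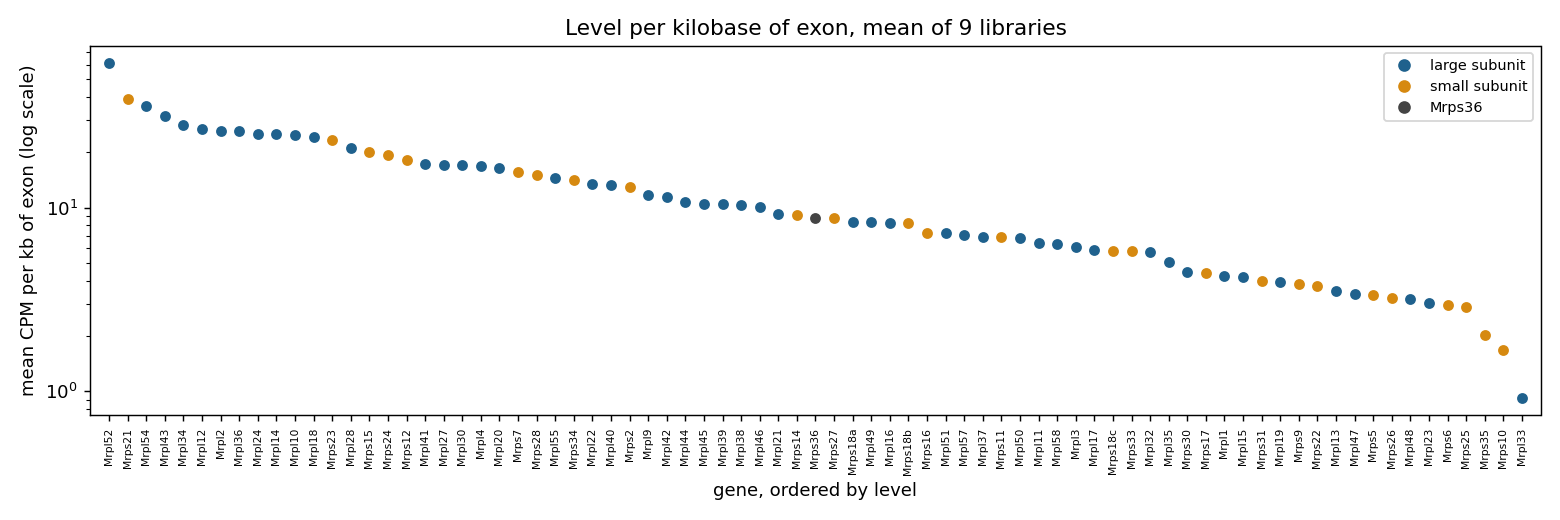
Mean level of each of the 77 genes over the 9 libraries, in CPM per kilobase of merged annotated exon on a log scale. Genes are ordered from high to low and coloured by subunit. Mrpl52 is highest at 61.5 and Mrpl33 lowest at 0.914, and genes of both subunits occur along the order.

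Within the large subunit, the stalk that recruits elongation factors held both the lowest and the highest fold change of OAT-1746 against CTR in the family. Mrpl11, the counterpart of bacterial L11 at the base of this stalk, stood at 28.1 and 26.1 CPM in CTR, 14.03 and 10.7 under OAT-1746, 19.2 and 18.9 under anti-PD-1 and 18.6, 27.98 and 23.8 under COMB. Both OAT-1746 libraries were below all others, and both anti-PD-1 libraries were below both CTR libraries. The log2 fold change of OAT-1746 against CTR was −1.13 (approximate standard error 0.22), with an adjusted p of 0.061 in edgeR and 0.00108 in DESeq2. Mrpl12, the L7/L12 counterpart that reaches out to the factors and also binds mitochondrial RNA polymerase, had 45.7 and 48.6 CPM in CTR, 29.2 and 23.5 under OAT-1746, 44.8 and 40.3 under anti-PD-1 and 37.9, 54.4 and 43.5 under COMB. OAT-1746 was again below every other library, with a log2 fold change of −0.84 and an adjusted p of 0.0628 in edgeR and 0.00795 in DESeq2. Mrpl10, which anchors the Mrpl12 copies to the stalk, had 39.9 and 40.8 CPM in CTR, 47.7 and 38.3 under OAT-1746, 41.3 and 41.5 under anti-PD-1 and 40.4, 47.2 and 44.7 under COMB. Its groups overlapped, with OAT-1746 replicate 1 the highest and replicate 2 the lowest library, and its log2 fold change of 0.09 (adjusted p 0.704 in edgeR) became −0.08 without OAT-1746 replicate 1. Whether stalk members differed from each other in their response was not tested.

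4 further large-subunit members had the lowest fold changes after Mrpl11. Mrpl1, the counterpart of the bacterial protein through which spent tRNA leaves, had 22.1 and 19 CPM in CTR and 11.6 and 7.95 under OAT-1746, with 20.6 and 23.8 under anti-PD-1 and 14.2, 22.6 and 21.3 under COMB. Mrpl28, the counterpart of bacterial L28, had 30.4 and 34.6 CPM in CTR and 19.7 and 11.8 under OAT-1746, with 28.1 and 29.2 under anti-PD-1 and 30.2, 42.5 and 35.6 under COMB. In these genes, both OAT-1746 libraries lay below all others, and replicate 2 was the lower of the pair. Mrpl18, whose bacterial counterpart binds the smallest ribosomal RNA, had 36.0 and 33.8 CPM in CTR, 20.95 and 13.3 under OAT-1746, 39.2 and 38.0 under anti-PD-1 and 32.7, 50.4 and 42.3 under COMB. Mrpl20, the counterpart of a protein that bacteria add early in assembly, had 31.8 and 30.6 CPM in CTR, 20.3 and 10.8 under OAT-1746, 33.1 and 24.3 under anti-PD-1 and 24.6, 37.7 and 32.5 under COMB. OAT-1746 was the lowest group in each case without overlap. The log2 fold changes were −1.07 for Mrpl1, −1.05 for Mrpl28, −1.03 for Mrpl18 and −1.01 for Mrpl20. DESeq2 called all 4, with adjusted p of 0.00886, 0.00682, 0.00778 and 0.0291 in that order. edgeR gave 0.0667, 0.0634, 0.0644 and 0.0794, which miss the limit of 0.05.

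Promoters are shown for the ends of the family's range of OAT-1746 against CTR, the 4 members with the lowest fold changes and the pair of members, Mrpl10 and Mrpl46, whose fold change was above 0 with all libraries, though below 0 without OAT-1746 replicate 1. Each window spans 300 bases, 250 before and 50 after the RefSeq start, on mouse build GRCm38.p6, read 5′ to 3′ on the gene's strand. RefSeq windows were found for 68 of the 77 members and not for the other 9. Mrpl11 lies at chr19:4962056-4962355 on the plus strand, Mrpl1 at chr5:96209865-96210164 on the plus strand, Mrpl28 at chr17:26123253-26123552 on the plus strand, Mrpl18 at chr17:12916042-12916341 on the minus strand, Mrpl10 at chr11:97041332-97041631 on the plus strand and Mrpl46 at chr7:78783040-78783339 on the minus strand. Capitals mark letters of 4 motifs searched on both strands: the NRF1 core GCGCATGC, the ETS core CCGGAA bound by GABP, the YY1 element AAGATGGCG and the E-box CACGTG bound by MYC. No motif contains another.
Mrpl11: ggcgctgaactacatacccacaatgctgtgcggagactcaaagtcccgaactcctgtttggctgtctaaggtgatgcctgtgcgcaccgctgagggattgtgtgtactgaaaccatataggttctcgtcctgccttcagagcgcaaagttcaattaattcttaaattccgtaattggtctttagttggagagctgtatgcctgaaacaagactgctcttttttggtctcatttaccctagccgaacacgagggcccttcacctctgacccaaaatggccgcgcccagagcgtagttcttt
Mrpl1: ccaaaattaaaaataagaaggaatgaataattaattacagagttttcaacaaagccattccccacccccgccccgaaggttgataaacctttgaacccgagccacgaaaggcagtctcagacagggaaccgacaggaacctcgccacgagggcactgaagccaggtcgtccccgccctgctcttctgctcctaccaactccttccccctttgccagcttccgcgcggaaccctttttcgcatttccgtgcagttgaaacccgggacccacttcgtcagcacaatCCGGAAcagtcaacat
Mrpl28: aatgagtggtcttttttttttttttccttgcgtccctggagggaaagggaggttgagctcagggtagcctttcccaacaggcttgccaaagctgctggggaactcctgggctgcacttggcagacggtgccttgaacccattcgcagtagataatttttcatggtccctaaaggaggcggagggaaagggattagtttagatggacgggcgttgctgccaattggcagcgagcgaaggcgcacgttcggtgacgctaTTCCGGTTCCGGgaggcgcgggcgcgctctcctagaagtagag
Mrpl18: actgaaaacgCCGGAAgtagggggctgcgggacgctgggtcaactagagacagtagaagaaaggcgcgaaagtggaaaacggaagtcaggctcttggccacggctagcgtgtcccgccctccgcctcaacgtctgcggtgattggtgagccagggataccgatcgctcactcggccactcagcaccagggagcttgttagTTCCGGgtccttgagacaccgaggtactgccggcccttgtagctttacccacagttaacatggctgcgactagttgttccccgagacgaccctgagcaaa
Mrpl10: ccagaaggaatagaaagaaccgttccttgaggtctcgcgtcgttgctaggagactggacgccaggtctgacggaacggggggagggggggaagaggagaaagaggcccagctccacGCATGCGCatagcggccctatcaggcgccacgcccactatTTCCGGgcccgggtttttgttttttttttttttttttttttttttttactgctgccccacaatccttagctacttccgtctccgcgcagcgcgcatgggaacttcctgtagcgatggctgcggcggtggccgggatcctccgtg
Mrpl46: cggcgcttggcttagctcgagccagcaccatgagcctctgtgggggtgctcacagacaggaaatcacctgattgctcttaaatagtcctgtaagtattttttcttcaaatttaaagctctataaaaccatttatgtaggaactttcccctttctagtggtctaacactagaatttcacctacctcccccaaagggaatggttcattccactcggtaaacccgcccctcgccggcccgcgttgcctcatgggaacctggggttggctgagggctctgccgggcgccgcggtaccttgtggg
The ETS core appears once in Mrpl1, from base 35 after the start, at a pair of adjacent places in Mrpl28, at a pair of places in Mrpl18, 240 and 50 bases before the start, and in Mrpl10, 94 bases before it. The window of Mrpl10 also holds the NRF1 core, 134 bases before the start, while those of Mrpl11 and Mrpl46 hold none of the 4 motifs. Among all 74 windows of members, the ETS core was in 56.8%, against 14.9% of all 32851 windows of this length and 26.2% of the windows of tested genes. The NRF1 core was in 10.8% of member windows, against 2.71% of all and 5.01% of tested genes. The YY1 element was also in 10.8%, against 1.4% of all and 2.89% of tested genes. The E-box was in 9.46%, against 7.15% of all and 9.57% of tested genes. A match is a description, not a site or a cause, and no match says only that these letters are not in this window.

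At the exit of the peptide tunnel, Mrpl45 ties the ribosome to the inner membrane. It had 30.3 and 27.7 CPM in CTR, 21.8 and 15.9 under OAT-1746, 26.1 and 29.2 under anti-PD-1 and 26.6, 37.5 and 29.99 under COMB. Both OAT-1746 libraries were the lowest, with a log2 fold change of −0.62 and an adjusted p of 0.0964 in edgeR and 0.0673 in DESeq2. The other tunnel-exit members ranged from −0.26 for Mrpl44, an RNase III relative, to −0.93 for Mrpl23, the counterpart of bacterial L23 to which chaperones and membrane machinery bind. Mrpl58, a subunit that also releases peptides from stalled ribosomes, had 24.7 and 22.6 CPM in CTR, 17.5 and 13.1 under OAT-1746, 21.6 and 18.9 under anti-PD-1 and 18.5, 29.6 and 23.8 under COMB. OAT-1746 was lowest here too, at −0.63 with an adjusted p of 0.113 in edgeR. Mrpl46, a protein of the central protuberance, had 14.2 and 13.6 CPM in CTR, 16.1 and 12.6 under OAT-1746, 14.8 and 12.8 under anti-PD-1 and 13.7, 14.8 and 14.9 under COMB. Its groups overlapped and its log2 fold change was 0.05 (adjusted p 0.877 in edgeR), which became −0.14 without OAT-1746 replicate 1.

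In the small subunit, Mrps25, a protein found in mitochondria and not in bacteria, had the lowest fold change. Its levels were 22.1 and 21.5 CPM in CTR, 11.9 and 9.84 under OAT-1746, 17.1 and 20.5 under anti-PD-1 and 18.7, 25.9 and 23.5 under COMB. The OAT-1746 libraries lay well below the rest, with a log2 fold change of −1.0 and an adjusted p of 0.061 in edgeR and 0.0022 in DESeq2. Mrps12, the counterpart of bacterial S12 at the decoding site, had 22.0 and 21.6 CPM in CTR, 14.1 and 9.73 under OAT-1746, 24.6 and 21.2 under anti-PD-1 and 14.2, 23.2 and 18.8 under COMB. COMB replicate 1 came close to OAT-1746 replicate 1 but did not overlap it, and the log2 fold change of OAT-1746 against CTR was −0.87 (adjusted p 0.074 in edgeR and 0.029 in DESeq2). Mrps2, the counterpart of bacterial S2, had 41.9 and 41.0 CPM in CTR, 34.5 and 32.6 under OAT-1746, 40.5 and 37.4 under anti-PD-1 and 36.7, 38.5 and 37.6 under COMB. OAT-1746 was lowest by a narrower margin, at −0.31 with an adjusted p of 0.151 in edgeR.

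The S18 family has 3 mitochondrial paralogs that occupy different places. Mrps18a, which sits in the large subunit, had 33.8 and 34.7 CPM in CTR and 22.5 and 15.6 in OAT-1746. Mrps18b, in the small subunit, had 19.5 and 19.1 CPM in CTR and 13.2 in each OAT-1746 library. Mrps18c, which takes the place of bacterial S18, had 5.95 and 7.0 CPM in CTR and 4.60 and 2.35 in OAT-1746. In all 3 paralogs OAT-1746 was below CTR without overlap, with log2 fold changes of −0.85, −0.55 and −0.90. For Mrps18c, 23.2% of the exon bases lie under another gene on the same strand, as do 37% for Mrps34, 19.9% for Mrps6 and 15.4% for Mrps24. Mrps36 had 15.4 and 11.8 CPM in CTR and 9.60 and 5.26 under OAT-1746, a log2 fold change of −0.87 with an adjusted p of 0.104 in edgeR, and OAT-1746 did not overlap CTR here either. Mrps30, now placed in the large subunit, had 27.8 and 26.0 CPM in CTR and 25.4 and 18.8 under OAT-1746, at −0.28 with an adjusted p of 0.372 in edgeR.

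**Figure D3:**
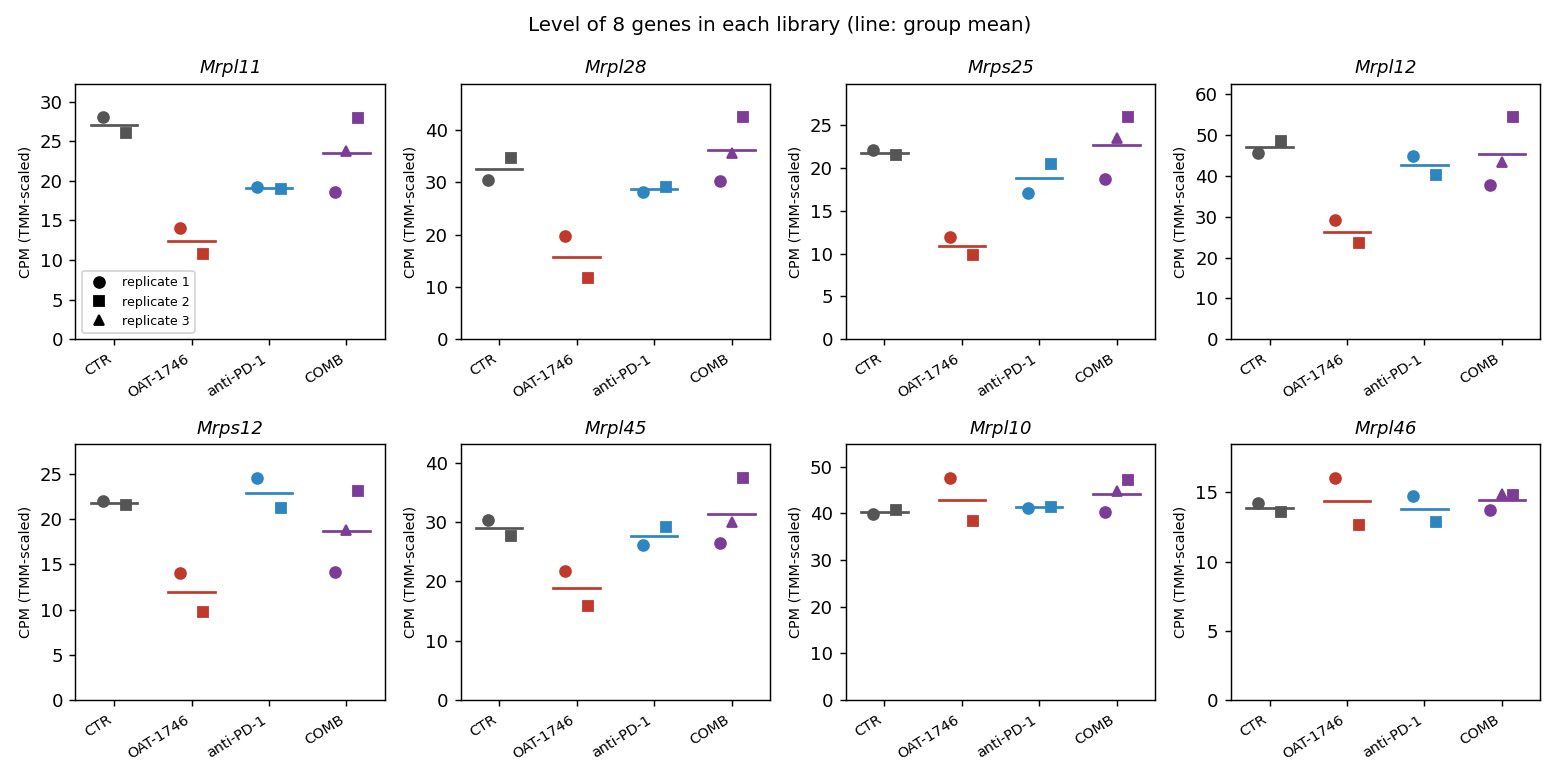
Level of 8 members in each library, in TMM-scaled CPM with axes from 0 and a line at each group mean. Mrpl11, Mrpl28, Mrps25, Mrpl12, Mrps12 and Mrpl45 are lowest under OAT-1746, while the groups of Mrpl10 and Mrpl46 overlap.

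Over the whole family, 75 of 77 members were lower in OAT-1746 than in CTR by fold change (73 with scaling by library size alone and 70 with a loess correction for exon length and GC), with a median log2 fold change of −0.68, against 0.01 over all tested genes. The same median was −0.69 over the large and −0.65 over the small subunit. Members with a bacterial counterpart had medians of −0.75 in the large and −0.72 in the small subunit. Those classed as mitochondrial only had −0.62 and −0.51 in that order, with Mrps18a and Mrps18b of the S18 family counted among them. In 72 members both OAT-1746 libraries were below both CTR libraries, as in 32.1% of tested genes. The 5 that overlapped, named after their values were seen, were Mrpl10, Mrpl46, Mrpl49, Mrpl50 and Mrps33. In 63 members both OAT-1746 libraries were below all 7 other libraries, as in 16.6% of tested genes. The library-by-library map of the members shows this as a pair of dark columns, deeper in replicate 2, which was the lower of the pair in 72 members.

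At an unadjusted p under 0.05, 59 members were lower in edgeR, a call made for 16.2% of tested genes in that direction. After Benjamini-Hochberg adjustment over all tested genes edgeR called 0 members, the smallest adjusted p being 0.061, and 0% of all tested genes, so this count does not set the members apart, while DESeq2 called 28 lower, against 7.52% of tested genes. The edgeR calls were 50 without OAT-1746 replicate 1, where 17.0% of tested genes were called lower too, 2 without COMB replicate 1 (0.425%) and 6 without the low-count filter (1.22%). The count of 59 became 22 without OAT-1746 replicate 2 (6.33% of tested genes), 33 without CTR replicate 1 (7.42%), 39 without CTR replicate 2 (11.3%) and 36 with a replicate block and a loess correction for exon length and GC (10.96%).

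**Figure D4:**
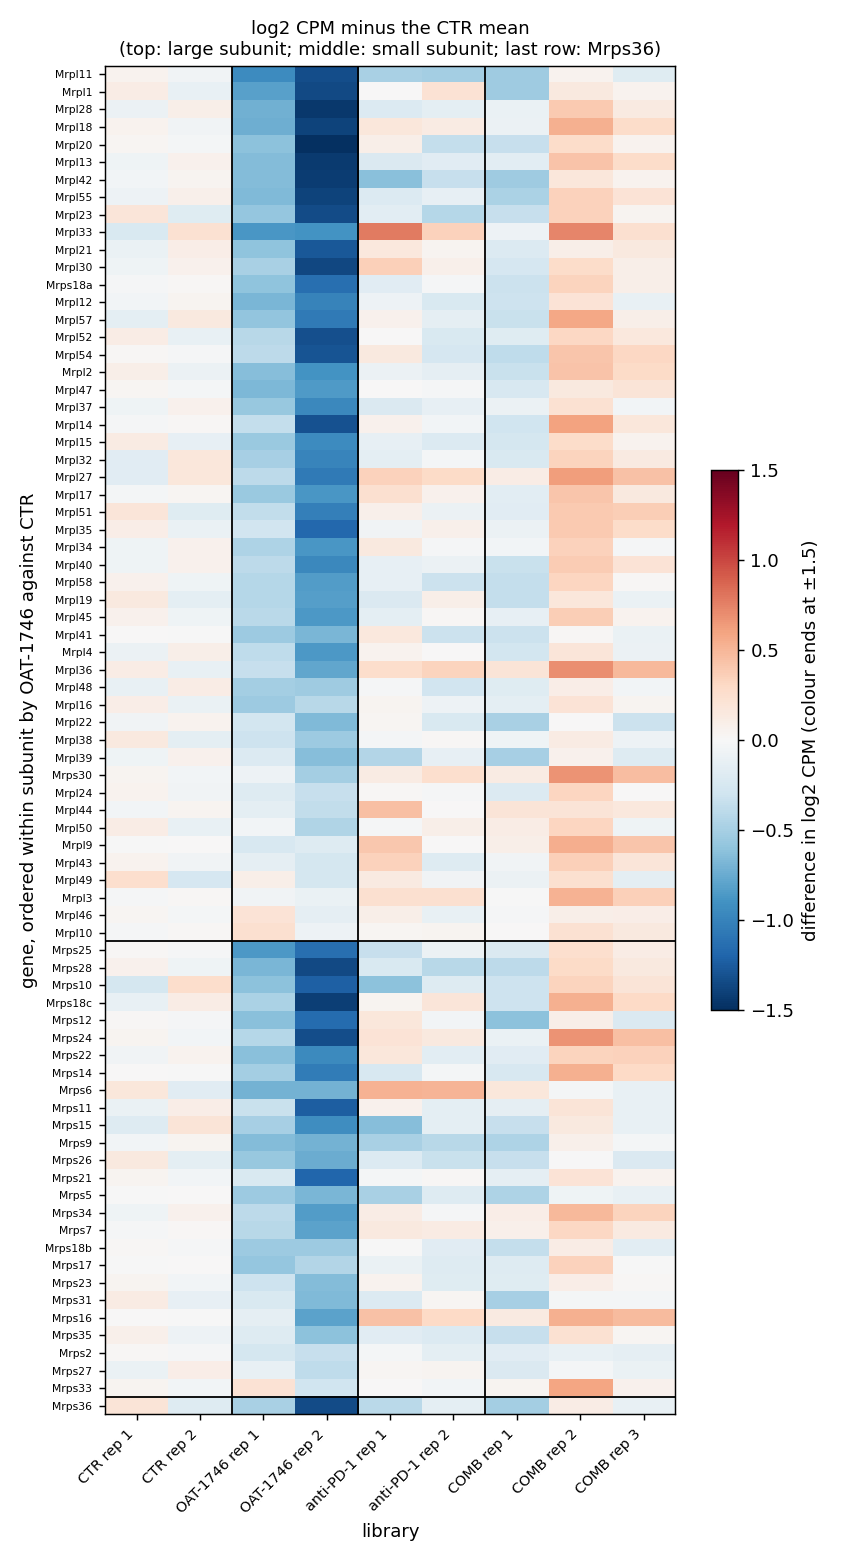
Difference of each member's log2 CPM in each library from its CTR mean, with the large subunit above, the small subunit in the middle and Mrps36 last, ordered by the fold change of OAT-1746 against CTR. Blue marks lower and red marks higher values. The OAT-1746 columns are blue for nearly all members (under scaling by library size alone 73 are lower by fold change), replicate 2 more so than replicate 1, and COMB replicate 2 is mostly red.

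The antibody alone left the family near its CTR level. The median log2 fold change of anti-PD-1 against CTR was −0.04, against 0.02 over all tested genes, with 48 members lower and 29 higher (39 lower with scaling by library size alone and 59 with the loess correction). Without anti-PD-1 replicate 2 this median was 0.0042, so its sign rests on that library. With the loess correction and all libraries it was −0.11, against −0.03 over all tested genes. Mrps9, whose bacterial counterpart reaches the tRNA in the small subunit, had 25.9 and 27.4 CPM in CTR and 18.95 and 19.9 in anti-PD-1. Mrpl42, a large-subunit protein found only in mitochondria, had 50.9 and 53.5 CPM in CTR and 33.8 and 41.1 in anti-PD-1. For both genes, as for Mrpl11, the anti-PD-1 libraries were below the CTR libraries without overlap. Mrps5, near the entry of the mRNA, had 26.4 and 26.5 CPM in CTR and 18.8 and 23.0 in anti-PD-1. Mrps28, the counterpart of bacterial S1, had 14.4 and 13.2 CPM in CTR and 11.8 and 10.3 in anti-PD-1. The fold changes of these 5 members, chosen among those whose libraries do not overlap between the groups, ran from −0.50 for Mrpl11 to −0.32 for Mrps28 on the log2 scale. Mrps10 at −0.41 and Mrps15 at −0.39 were also lower than Mrps28 but overlapped CTR.

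On the higher side, Mrpl33 had 5.17 and 7.18 CPM in CTR and 10.5 and 7.78 in anti-PD-1, and Mrps6, the counterpart of bacterial S6, had 5.05 and 3.94 CPM in CTR and 6.48 and 6.42 in anti-PD-1. Mrps16, the counterpart of bacterial S16, had 18.8 and 18.6 CPM in CTR and 25.4 and 23.0 in anti-PD-1. Mrpl27, close to the peptide-forming center, and Mrpl36, the counterpart of bacterial L36, were higher by 0.31 and 0.29 on the log2 scale. These 5 were chosen in the same way, so their anti-PD-1 libraries were all above both CTR libraries. None of the members was called for this comparison by edgeR after adjustment (0 of 77, against 0% of tested genes) or by DESeq2 (0, against 0.112%). At an unadjusted p under 0.05 in edgeR the count was 2 lower, Mrpl11 and Mrps9, against 1.94% of tested genes. It was 0 higher, against 399 of 12538 tested genes.

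With both agents the family was again near CTR. The median log2 fold change of COMB against CTR was 0.06, against 0.00 over all tested genes, with 52 members higher and 25 lower (42 lower with the loess correction). The median was −0.01 with a loess correction for exon length and GC and −0.05 without COMB replicate 2. Mrpl36 had 29.4 and 25.1 CPM in CTR and 31.1, 44.3 and 38.0 in COMB, and all COMB libraries were above both CTR libraries. The same held for Mrps30, with 29.4, 42.9 and 37.2 CPM in COMB, and for Mrps16, with 20.6, 27.3 and 26.0. Mrpl9, the counterpart of bacterial L9, and Mrps34 of the small subunit were higher by 0.36 and 0.32 on the log2 scale. These 5 were again chosen without overlap, and Mrpl27 at 0.40 and Mrps24 at 0.38 were higher than Mrpl9 but overlapped CTR. Among members lower without overlap, Mrps5 had 19.2, 25.2 and 24.5 CPM in COMB, below both CTR libraries, and Mrps2 was likewise below, at −0.14 on the log2 scale. The lowest fold changes were those of Mrpl22 at −0.26 and Mrps12 at −0.22, which overlapped CTR. edgeR called 0 members after adjustment (0% of tested genes) and DESeq2 0 (0.279%), so hardly any gene was called. At an unadjusted p under 0.05 in edgeR the count was 2 higher, Mrpl36 and Mrps30, against 3.21% of tested genes. It was 0 lower, against 3.37%. COMB replicate 2 was the highest COMB library in 71 members and replicate 1 the lowest in 72.

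Set against OAT-1746 alone, COMB was higher in all 77 members (2 were lower with scaling by library size alone and 13 with the loess correction), with a median log2 fold change of 0.77 against 0.00 over all tested genes. All COMB libraries were above both OAT-1746 libraries in 65 members, as in 25.0% of tested genes. Mrpl18 rose from 20.95 and 13.3 CPM in OAT-1746 to 32.7, 50.4 and 42.3 in COMB, a log2 fold change of 1.29 (approximate standard error 0.24) with an adjusted p of 0.0211 in edgeR and 4.87e-05 in DESeq2. Mrpl13, the counterpart of a bacterial protein of early assembly, rose from 19.4 and 11.3 CPM to 27.4, 41.2 and 37.1, by 1.20 with an adjusted p of 0.0273 in edgeR. Each COMB library of these genes lay above each OAT-1746 library. Mrps24, the counterpart of bacterial S3 at the entry of the mRNA, rose from 20.3 and 10.8 CPM to 25.6, 43.8 and 37.6, by 1.20 with an adjusted p of 0.0347. Mrpl33 rose from 3.26 and 3.20 CPM to 5.79, 10.2 and 7.23, by 1.26 with an adjusted p of 0.0336. These 4 genes and Mrpl28, at 1.20 with an adjusted p of 0.0242, had the highest fold changes among members called by edgeR. The smallest adjusted p was that of Mrps25, 0.0203, whose level went from 11.9 and 9.84 CPM to 18.7, 25.9 and 23.5.

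In this comparison edgeR called 37 members higher after adjustment, a call made for 6.84% of tested genes, and DESeq2 50, against 13.2%. At an unadjusted p under 0.05 the count was 64 higher, against 18.3%. The called members were 28 of the 50 in the large subunit and 9 of the 26 in the small subunit. Mrpl11, Mrpl12 and Mrpl45 were among them, with log2 fold changes of 0.93, 0.78 and 0.73, while Mrps12 at 0.65 (adjusted p 0.0825), Mrps2 at 0.17 (0.35), Mrpl10 at 0.04 (0.869) and Mrpl46 at 0.01 (0.968) were not. Hardly any tested gene was called higher without COMB replicate 2 (0.00799%), COMB replicate 3 (0%) or OAT-1746 replicate 2. No member was called without OAT-1746 replicate 2, COMB replicate 2 or COMB replicate 3, while the median of the family ranged from 0.56 to 0.99 over the edgeR fits without a library. Calls numbered 13 without CTR replicate 1 (2.01% of tested genes in that fit), 14 without CTR replicate 2 (1.96%), 14 and 15 without anti-PD-1 replicate 1 and 2 (2.18% and 2.38%), and 0 with the replicate number as a block (0%), while a loess correction for exon length and GC gave 23 (4.52%) with a median of 0.46. They were 50 without OAT-1746 replicate 1 (18.1%) and 49 without COMB replicate 1 (10.4%), so the calls over all tested genes moved with those of the members.

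**Figure D5:**
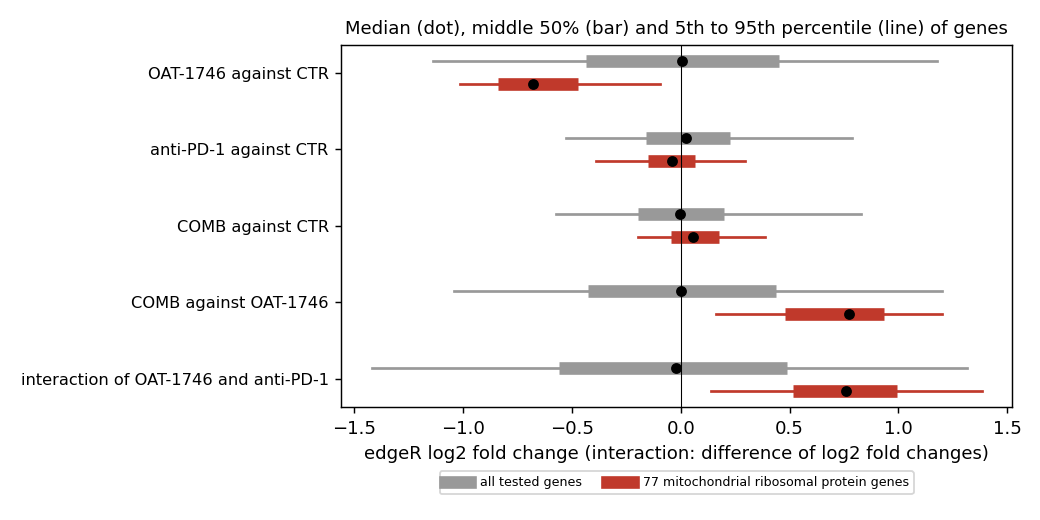
Median (dot), middle 50% of genes (bar) and 5th to 95th percentile (line) of the edgeR log2 fold change over all tested genes (grey) and over the 77 members (red) in each comparison. The members lie to the left of the grey bars for OAT-1746 against CTR (median −0.68), near 0 for anti-PD-1 and COMB against CTR, and to the right for COMB against OAT-1746 (0.77) and for the interaction (0.76), and the loess correction turns the sign of 13 members in COMB against OAT-1746 and 10 in the interaction.

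The interaction asks whether OAT-1746 acted differently with the antibody (COMB against anti-PD-1) than without it (OAT-1746 against CTR). It was above 0 in all 77 members (3 were below 0 with scaling by library size alone and 10 with the loess correction), with a median difference of log2 fold changes of 0.76 against −0.02 over all tested genes. Scaling by library size alone moved the median of all tested genes to −0.11 and that of the members to 0.67. Mrpl11 had the smallest p of the family, with a difference of 1.43 (approximate standard error 0.29) and an adjusted p of 0.0753 in edgeR and 0.00255 in DESeq2. Mrps25 followed with 1.28 (0.0778 in edgeR and 0.00396 in DESeq2), and Mrpl28 with 1.38 (0.093 and 0.0111). Mrpl11 and Mrps25 were lower in anti-PD-1 than in CTR by the group means and COMB lay nearer to CTR, as the values above show. Mrpl10 had a difference of 0.00 and Mrpl46 of 0.02. The edgeR fit called 0 members after adjustment (0.00798% of tested genes above 0), with 44 above 0 at an unadjusted p under 0.05, against 11.8% of tested genes, and DESeq2 called 13, against 3.46%. The count of 44 became 24 without anti-PD-1 replicate 2 (9.72% of tested genes), 28 without OAT-1746 replicate 2 (7.96%), 29 without COMB replicate 2 (7.14%) and 21 with the replicate block (4.59%). Without OAT-1746 replicate 1 edgeR called 41 (12.8% of tested genes), without COMB replicate 1 it called 4 (0.833%), and without the low-count filter 1 (0.0933%). In 3 members both OAT-1746 libraries were below both CTR libraries while every COMB library was above both anti-PD-1 libraries, as in 2.89% of tested genes, a share near theirs. All these comparisons share libraries, so their members' values stand side by side and are not independent of each other.

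The rest of the mitochondrial translation pathway was read in lists of known genes. The mitoribosome also has subunits whose symbols do not begin with Mrp, and 5 of 5 of these were lower in OAT-1746 than in CTR by fold change, with a median of −0.84 on the log2 scale and 0 called by edgeR. Dap3, a GTP-binding protein of the small subunit, had 35.0 and 34.2 CPM in CTR, 23.6 and 14.7 under OAT-1746, 29.8 and 36.0 under anti-PD-1 and 32.5, 41.8 and 42.6 under COMB. DESeq2 called 2 of the 5 lower, against 7.52% of tested genes. These were Dap3 and Chchd1, with adjusted p of 0.0215 and 0.0311. Among 15 translation factors the median was −0.28. DESeq2 called 4 lower, against 7.52% of tested genes, and edgeR 0, against 0%. Tsfm, the exchange factor of the elongation factor Tufm, had 12.6 and 11.9 CPM in CTR and 6.40 and 6.81 under OAT-1746, and Slirp, which stabilizes mitochondrial mRNAs, had 20.8 and 22.9 against 14.1 and 11.2. Mtif3, an initiation factor, was higher by 0.45 (adjusted p 0.151 in edgeR).

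The lists of tRNA synthetases, assembly factors and mitochondrial DNA maintenance had medians nearer 0 than the translation factors. The 20 mitochondrial aminoacyl-tRNA synthetases had a median of 0.02 in OAT-1746 against CTR, with 9 lower and 11 higher. DESeq2 called 1 of the 20 lower, Cars2, against 7.52% of tested genes. The 26 assembly factors of the mitoribosome had a median of 0.03, with 3 called lower by DESeq2, against 7.52% of tested genes. Among these 3 was the RNA-binding C1qbp with 73.0 and 64.9 CPM in CTR and 49.3 and 38.5 in OAT-1746. The 9 genes of mitochondrial DNA maintenance and transcription had a median of 0.19. After adjustment edgeR called 0, against 0% of tested genes, and DESeq2 0, against 7.52% lower and 8.40% higher. At an unadjusted p under 0.05 in edgeR 2 were higher, against 16.1% of tested genes. The mitochondrial mRNAs that these ribosomes translate were mostly higher. Of 13, 7 were tested, and 6 of these had a higher level with OAT-1746 than in CTR, with a median of 1.01, and DESeq2 called 2 of them, against 8.40% of tested genes, and edgeR 0. Another 5, such as mt-Co2, had 0 counts in every library. Among those tested, mt-Nd2, a subunit of complex I, had 1214 and 1300 CPM in CTR, 2682 and 2524 under OAT-1746, 599 and 976 under anti-PD-1 and 1222, 707 and 772 under COMB, and DESeq2 called it higher in OAT-1746 with an adjusted p of 0.0149. Among 9 tested regulators of mitochondrial biogenesis, Myc had 41.6 and 44.1 CPM in CTR and 58.3 and 78.5 under OAT-1746, called higher by DESeq2 (adjusted p 0.0355), while the median of this list was 0.14.

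A pair of large nuclear families were lower beside the members. Of 82 cytosolic ribosomal protein genes, 81 were lower in OAT-1746 than in CTR, with a median of −0.76 on the log2 scale, and DESeq2 called 71, against 7.52% of tested genes. Of 79 nuclear-encoded respiratory chain genes, 77 were lower, with a median of −0.73, and DESeq2 called 37. edgeR called 0 in either family after adjustment, as over all tested genes (0%), with 77 and 61 lower at an unadjusted p under 0.05, against 16.2%. In COMB against OAT-1746 these families had medians of 0.81 and 0.89 in that order. edgeR called 58 and 47 of their genes higher there, against 6.84% of tested genes. The lower level in OAT-1746 was thus not limited to the mitochondrial ribosome. Of 10 cell cycle genes, DESeq2 called 8 lower, against 7.52% of tested genes, and edgeR 0, with a median of −1.56, and their summed level was 322 and 315 CPM in CTR, 202 and 108 under OAT-1746, 223 and 267 under anti-PD-1 and 238, 276 and 261 under COMB.

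Markers of cell types were read beside the members. The 6 microglia markers summed to 7447 and 11810 CPM in CTR, 16148 and 20556 under OAT-1746, 10624 and 9140 under anti-PD-1 and 13293, 9586 and 9101 under COMB. For all 6 markers the OAT-1746 libraries lay above the CTR libraries, as in 30.8% of tested genes. DESeq2 called 5 of them, against 8.40%, and edgeR 0. In COMB against OAT-1746 all 6 were lower by fold change, and edgeR called 2 of them lower, against 1121 of 12538 tested genes. The most abundant was Cx3cr1. The 7 monocyte and macrophage markers summed to 11960 and 11018 CPM in CTR, 8255 and 1545 under OAT-1746, 10314 and 12805 under anti-PD-1 and 8736, 10618 and 10977 under COMB. OAT-1746 replicate 2 was far below every other library for these, but for 4 of the 7 OAT-1746 overlapped CTR. DESeq2 called 2 of the 7 lower, against 7.52% of tested genes, and edgeR 0, against 0%. The 2 were Ccr2 and Tgfbi, the latter at 366 CPM in that library. NK cell markers summed to 33.3 and 29.9 CPM in CTR, 48.8 and 14.8 under OAT-1746, 203 and 104 under anti-PD-1 and 42.6, 91.5 and 99.6 under COMB. For all 7 of these OAT-1746 overlapped CTR. No marker on these 3 lists was at 0 in every library. The part of these cell types in the lower level of the members was not tested.

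Gene length also moved with the comparison of OAT-1746 and CTR. The median exon length was 2533 bases over the members and 4522 over all tested genes, and the 1521 tested genes under 2000 bases had a median log2 fold change of −0.40, against 0.05 for the longer ones. The 30 members under 2000 bases had a median of −0.73 and the 47 longer members −0.67. With a loess correction for exon length and GC the median of the members was −0.52, with 70 lower, so the direction held in that fit while the size was smaller. The spread within groups was also uneven. The median coefficient of variation of the members was 6.27% in CTR, 20.96% for OAT-1746, 7.40% for anti-PD-1 and 18.2% for COMB. The p-values rest on a spread per gene that all groups share, estimated between biological replicates of 2 to 3 per treatment. They do not follow the wider spread of OAT-1746 or COMB separately.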

How the data were processed

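The deposited table holds raw counts, which the authors made per gene from read pairs and left without normalization. Their methods name Trimmomatic 0.36 for trimming and STAR 2.6.1b for alignment to mm10. They marked duplicates with Picard 2.17.1 and counted pairs with HTSeq 0.11.1 in reverse stranded mode at a mapping quality of 10 or more. Of 53801 genes, 53620 matched GENCODE M21 and 181 did not. Of 21890 protein-coding genes, 12538 passed edgeR's filterByExpr with a minimum count of 10 and were tested.

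edgeR 4.0.16 in R 4.3.3 fitted the 9 libraries with TMM scaling and a quasi-likelihood model with a mean per group. Adjusted p-values are Benjamini-Hochberg values over all tested genes, from this fit unless DESeq2 is named, and a gene was called at an adjusted p under 0.05. edgeR gives no standard error for this test, so those printed are the size of the log2 fold change over the square root of its F statistic, an approximation. A difference called in 1 direction was counted with the share of all tested genes called the same way. DESeq2 1.42.0 (Wald test), DESeq2 size factors, scaling by library size, no low-count filter, all gene types, a replicate block, a loess correction for gene length and GC content (span 0.5), both of these together, and leaving out each library were run as alternatives. The count at an unadjusted p under 0.05 and a block with the anti-PD-1 numbers crossed were chosen after seeing the data. The fits were checked on simulated counts with the same spread in every library. Those counts held no library that stood apart and no trend with gene length.

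Members and lists were chosen with earlier results of these data known. Members are named by rule: up to 5 with the lowest and highest fold change in each comparison of groups among those whose libraries do not overlap between its groups, those with the smallest p, those at either end of the levels per kilobase, those nearest the count limit, and some for known roles or, after they were seen, for their values. One marker of the planned microglia list is not reported here, and the sums of that list are without it. Other markers, listed to describe the sort, summed as follows in CTR and OAT-1746. Border-associated macrophage markers had 759 and 852 CPM against 615 and 588, neutrophil markers 55.7 and 118 against 99.1 and 150, and dendritic cell markers 72.6 and 102 against 97.7 and 62.6. T cell markers had 9.01 and 7.94 CPM against 7.16 and 12.4, B cell markers 11.9 and 17.2 against 22.2 and 25.4, and erythroid markers 5.11 and 9.82 against 1.11 and 29.1. Markers of glioma and glia had 64.5 and 106 CPM against 139 and 201, of oligodendrocytes 170 and 186 against 186 and 258, of neurons 2.22 and 4.88 against 5.35 and 5.61, and of endothelial cells 135 and 113 against 139 and 136. The markers of a list did not always agree. In the border-associated list 3 were lower, Ms4a7 the most (305 and 306 against 115 and 32.8), and 3 higher, among them Mrc1. Most of the glioma and glia sum came from Slc1a3 (50.0 and 86.2 against 117 and 186), while Sox2 was lower. Plots used matplotlib 3.10.9 under Python 3.11.15.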

Additional observations from a re-analysis of the deposited data

Results flagged for a closer look

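DESeq2 called an interaction, a difference between COMB against anti-PD-1 and OAT-1746 against CTR, for 13 members, against 3.46% of tested genes: Mrpl11, Mrps25, Mrpl28, Mrpl13, Mrps9, Mrpl42, Mrpl37, Mrps28, Mrps10, Mrpl18, Mrpl12, Mrpl15 and Mrpl2. All 13 differences were above 0, from 0.95 for Mrpl12 to 1.45 for Mrpl11 on the log2 scale of DESeq2, and edgeR called 0 of them, with 44 members at an unadjusted p under 0.05, against 11.8% of tested genes. That count was 21 with the replicate block and as low as 24 without a library. For 3 members, Mrpl28, Mrpl13 and Mrpl37, both OAT-1746 libraries were below both CTR libraries while every COMB library was above both anti-PD-1 libraries, as in 2.89% of tested genes, so this count is near the background. This difference in direction was not tested beyond the interaction above.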

How the results depend on the processing

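The lower level of the members in OAT-1746 than in CTR kept its sign as a median in every alternative for which one was taken (all but the crossed block), from −0.89 to −0.47 when each library was left out, where a lone library in a group is assumed to vary like the other groups. Members called in that comparison numbered 28 in DESeq2, 6 without the low-count filter and 0 to 50 without a library, against 7.52%, 1.22% and 0 to 17.0% of tested genes. The count at an unadjusted p under 0.05 was 36 with the replicate block and the correction for length and GC content (10.96% of tested genes), and 22 to 61 without a library (6.33% to 23.4%). For COMB against OAT-1746, the replicate block gave 0 calls, the correction for length and GC content 23, both together 0, the crossed block 0, and leaving out a library 0 to 50, with 0 to 18.1% of tested genes called. The median there was 0.46 with the correction, 0.47 with both and 0.56 to 0.99 without a library. For the interaction, DESeq2 called 13 (3.46% of tested genes), the fit without the low-count filter 1 (0.0933%) and fits without a library 0 to 41 (0 to 12.8% of tested genes), with medians of 0.60 to 1.06. Libraries of the same number, taken as differences from their group means, had correlations of −0.35 to 0.10 across groups. In a group with only a pair of libraries these differences mirror each other, so whether libraries were paired cannot be decided from them.

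Mrpl10 changed sign for OAT-1746 against CTR, from −0.080 to 0.25 over the fits without a library. For COMB against OAT-1746 it ran from −0.10 to 0.21 over these fits, and was −0.011 with library size only, −0.40 with the correction and −0.40 with both. Mrps2 was −0.071 with the correction and −0.069 with both. Mrpl46 ran from −0.14 to 0.22 for OAT-1746 against CTR over the fits without a library. For COMB against OAT-1746 it ran from −0.14 to 0.20, and was −0.036 with library size only, −0.00063 with the replicate block, −0.49 with the correction and −0.50 with both. Mrpl49 ran from −0.34 to 0.19 for OAT-1746 against CTR over the fits without a library, and was 0.20 with the correction and 0.21 with both. For COMB against OAT-1746 it ran from −0.060 to 0.28, and was −0.34 with the correction and −0.25 with both. Mrps33 ran from −0.31 to 0.23 for OAT-1746 against CTR over the fits without a library, and was 0.059 with library size only, 0.29 with the correction and 0.29 with both. For COMB against OAT-1746 it was −0.14 with the correction and −0.047 with both. Mrpl22 was 0.018 with the correction and 0.018 with both for OAT-1746 against CTR, and −0.46 and −0.41 for COMB against OAT-1746. Mrpl44 was 0.069 and 0.071 for OAT-1746 against CTR and −0.018 and −0.00079 for COMB against OAT-1746. Over 58 members, those named here and others chosen by the same rules, 894 values for OAT-1746 against CTR kept their direction and call, 77 became called and 15 changed sign. For COMB against OAT-1746, 646 kept both, 24 became called, 292 lost the call and 24 changed sign. The cause was not tested for any of these changes.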
